A study of Mus musculus with 13 samples.

Results

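H3K27me3 islands of control 4T1 cells that had no counterpart in Nup210 knockout (KO) cells are described here. An island is a stretch of chromatin in which the SICER peak caller found more H3K27me3 ChIP reads than in an IgG library, and an island is called control alone when it shares not even 1 base with any island of the KO list. The islands were therefore chosen by the measured H3K27me3 signal itself, and their absence from the KO list is a description and not a finding. The lists hold only islands that meet a gene body, so a KO island outside genes is not seen. Of the 9555 distinct islands that met a gene body in control cells, 1771 (18.5%, 95% Wilson interval 17.8 to 19.3) were control alone and 7784 overlapped a KO island. The whole series held 64739 distinct peaks in 6 lists.

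4T1 is a mammary tumor cell line of BALB/cJ mice. The control cells (sg-Ctrl) carried a non-targeting guide RNA, and the knockout cells (KO-N13, below KO) carried a guide against Nup210, a transmembrane protein of the nuclear pore. Both had the guide stably integrated with puromycin selection and received Cas9 transiently from an adenovirus, and the KO cells are 1 clone grown from a single sorted cell. H3K27me3 and H3K4me3 were each profiled once in sg-Ctrl and once in KO, and NUP210 and nuclear pore complex proteins (NPC, antibody mAb414) once in sg-Ctrl, so no test over replicates was possible and the effect of the knockout, of the clone and of the single culture cannot be told apart.

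H3K27me3 is placed on chromatin by Polycomb repressive complex PRC2 and marks genes that are kept silent. It forms broad domains over developmental regulators, many of which have CpG-rich promoters, and lower, patchy domains over long inactive genes and gene deserts. H3K4me3 marks the starts of active or poised genes, and in many cells some starts carry both marks.

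The promoters of 4 genes whose start lay in one of the densest control-alone islands are shown. H3K27me3 ChIP reads were dense in these islands in sg-Ctrl, no listed KO island met them, and the 4 span CpG-rich and CpG-poor promoters. They are not the 4 densest such starts. The capitals mark the dinucleotide CG, which reads the same on both strands. The sequences are from RefSeq on GRCm38.p6 and run from 250 bases before to 50 bases after the start, in the direction of the gene. Nkx2-4, a homeobox transcription factor, is at chr2:147085296-147085595 on the minus strand, Sesn3, a stress-induced inhibitor of mTORC1 signalling, at chr9:14276051-14276350 on the plus strand, Churc1, a zinc-binding transcriptional regulator, at chr12:76765288-76765587 on the plus strand, and Bcl2l14, a member of the BCL2 family, at chr6:134396079-134396378 on the plus strand.
Nkx2-4: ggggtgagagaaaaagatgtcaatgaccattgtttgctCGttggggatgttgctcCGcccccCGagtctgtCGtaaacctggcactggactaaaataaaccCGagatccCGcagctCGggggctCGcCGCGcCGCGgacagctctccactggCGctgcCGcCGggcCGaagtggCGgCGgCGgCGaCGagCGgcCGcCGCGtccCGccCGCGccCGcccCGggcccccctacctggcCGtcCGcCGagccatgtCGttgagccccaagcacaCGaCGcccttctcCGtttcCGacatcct
Sesn3: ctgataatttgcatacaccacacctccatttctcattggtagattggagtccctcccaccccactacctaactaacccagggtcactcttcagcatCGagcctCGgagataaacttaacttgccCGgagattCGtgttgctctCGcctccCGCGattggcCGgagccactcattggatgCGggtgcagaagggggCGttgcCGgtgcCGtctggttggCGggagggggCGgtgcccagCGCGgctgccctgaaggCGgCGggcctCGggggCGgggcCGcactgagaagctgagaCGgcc
Churc1: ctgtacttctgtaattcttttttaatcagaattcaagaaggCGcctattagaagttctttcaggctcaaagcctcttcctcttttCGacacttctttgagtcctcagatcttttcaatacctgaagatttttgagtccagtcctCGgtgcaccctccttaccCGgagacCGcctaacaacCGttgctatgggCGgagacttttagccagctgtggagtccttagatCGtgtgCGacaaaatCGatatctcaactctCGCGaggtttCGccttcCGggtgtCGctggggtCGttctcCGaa
Bcl2l14: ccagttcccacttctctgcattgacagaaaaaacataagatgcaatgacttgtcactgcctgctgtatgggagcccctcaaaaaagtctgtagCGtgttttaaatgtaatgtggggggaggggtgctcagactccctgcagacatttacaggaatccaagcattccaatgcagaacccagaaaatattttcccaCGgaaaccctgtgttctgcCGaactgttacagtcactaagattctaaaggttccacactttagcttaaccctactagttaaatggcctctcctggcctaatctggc

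These windows held 38 CG in Nkx2-4, 22 in Sesn3, 17 in Churc1 and 3 in Bcl2l14, and the promoters of Atxn7l3b and Vmn1r1, also in the densest islands, held 21 and 3. A promoter was found by symbol for 215 of the 327 genes whose start was covered by a control-alone island, and 208 promoter starts lay in such islands on RefSeq coordinates. Their median CG count was 6, against 2 for the 1741 promoters in islands that overlapped KO and 8 for all 27025 promoters. At least 10 CG were present in 38.9% of the promoters in control-alone islands, in 19.8% of those in overlapping islands and in 45.8% of all. At least 1 CG was present in 93.8%, 83.9% and 94.6%. The promoters in control-alone islands thus lay between both other groups in CG content, with no test made. The groups also differ in gene families. Of 477 islands on olfactory, vomeronasal and taste receptor genes, 20 were control alone, and their part in the CG counts was not tested.

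The control-alone islands were short stretches of moderate H3K27me3. They covered 21.5 Mb, which was 9.71% of the length of all sg-Ctrl islands, and held 557632 reads, 7.22% of the reads. Their median width was 9 kb (quartiles 6 and 15, range 1 to 150), against 15 kb for overlapping islands. Density, given below as ChIP reads divided by the library size relative to IgG (0.847 for sg-Ctrl, 2.68 for KO) per kb, had a median of 28.7 (interval 28.2 to 29.1) in control-alone islands and of 33.5 in overlapping islands. Median IgG reads per kb were 12.8 and 13.4, and the median folds over IgG were 2.28 and 2.63. Of the control-alone islands, 1647 had an FDR of at most 0.05, 1068 were at least 2-fold over IgG and 62 had fewer ChIP reads than the scaled IgG. All intervals here cover counting error only.

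The share of islands that were control alone fell with width. It was 35.2% for islands up to 3 kb, 29.7% for 4 to 6 kb, 25.2% for 7 to 10 kb, 18.8% for 11 to 20 kb, 9.07% for 21 to 50 kb and 2.77% for those over 50 kb. A longer island has more bases that could meet a KO island, which the rule itself counts. Relative to IgG, KO had 3.16 times as many H3K27me3 reads as sg-Ctrl, and the lowest density of a listed island was 14.7 in KO and 16.2 among the control-alone islands. Of the control-alone islands, 1721 (97.2%) had a density above the 5th percentile of KO islands of the same width class, and 1163 (65.7%) had one above their median. These shares describe the values that chose the islands, and they were not taken for overlapping islands. No sg-Ctrl island had fewer than 48 ChIP reads, which sets a floor on the density of narrow islands. Up to 3 kb, 180 of 180 control-alone islands were above the 5th percentile and 178 above the median. The KO list in turn held 2170 islands with no sg-Ctrl counterpart (24.5% of 8874), with a median density of 24.6 and a median width of 9 kb. The KO reads under the control-alone islands are not part of the lists, so a loss is an absence from the KO list and has no fold change.

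**Figure D1:**
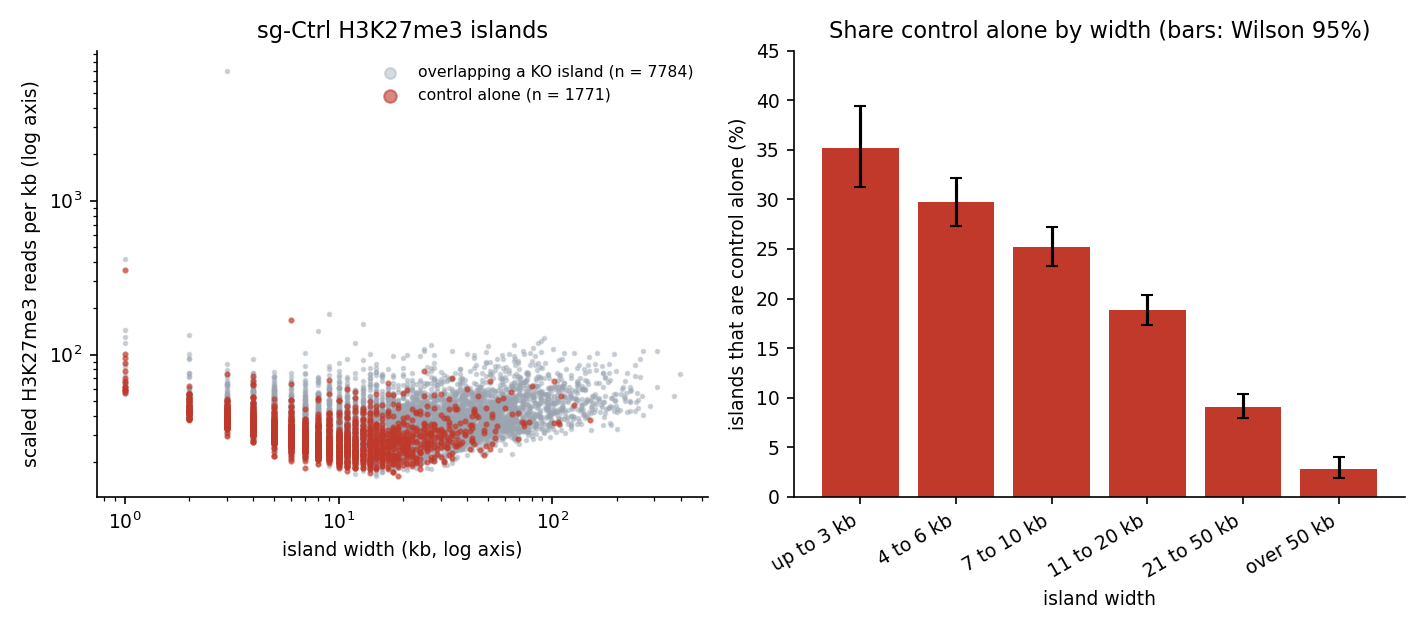
Left, width in kb and scaled H3K27me3 density of every sg-Ctrl island, both on log axes, with 1771 control-alone islands in red and 7784 overlapping islands in grey. Right, share of islands that were control alone in each width class with 95% Wilson intervals, falling from 35.2% to 2.77%.

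Most control-alone islands lay away from the listed KO islands, which leave out any outside genes. The median distance to the nearest KO island was 64 kb (quartiles 18 and 251.5), with 258 islands closer than 10 kb, 738 at 100 kb or more and 96 at 1 Mb or more. The nearest case was an island of 15 kb in Agbl4 (density 22.0), a cytosolic carboxypeptidase gene, which adjoined a KO island without sharing a base. Islands in Plxna2 (23.8), Ikzf3 (35.04) and Pcnxl2 (23.7) lay 1000 bases from one. Just outside the rule were islands with a small covered share. They lay in the potassium channel interactor Kcnip4 (88 kb, 3.41% covered by KO), the zinc transporter Slc39a8 (115 kb, 3.48%), the potassium channel Kcnh5 (56 kb, 3.57%) and the cytokine gene Il6 (138 kb, 4.35%), and 12 overlapping islands in all were covered by less than 10%. These are neighbours of the threshold and not a separate class.

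Control-alone islands lay wholly inside a gene body more often than overlapping islands did. Of these islands, 73.0% lay wholly inside a gene body, 17.4% covered a gene start, 17.6% covered a gene end and 5.19% contained a whole gene. For overlapping islands the shares were 64.2%, 25.5%, 27.9% and 14.1%. Control-alone islands were narrower (median 9 against 15 kb), and a narrower island has fewer bases that can reach a start or an end. The shares were not split by width. The islands met 1136 of the 4971 genes with a sg-Ctrl island, and 675 of these had no KO island left. Most of the genes, 811, had 1 control-alone island, while 51 had at least 5 and 13 had at least 10. The median length of these genes was 61.3 kb, against 19.3 kb for genes whose islands all overlapped KO, and a longer gene can meet more islands. On genes of at least 500 kb, 19.6% of the islands were control alone, against 18.3% of the islands on shorter genes.

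The densest islands of at least 3 kb with an FDR of at most 0.01 covered genes of varied function. An island of 25 kb at the end of Serpinb8, an intracellular serine protease inhibitor, held 1666 ChIP reads against 354 IgG reads and had a density of 78.7 (exact Poisson interval 74.97 to 82.6). A 3 kb island at the end of Amigo2, an adhesion protein, had a density of 75.2 and one in 4933406J08Rik had 72.6. Atxn7l3b, a relative of a deubiquitinase module subunit, had an island of 34 kb with a density of 70.3. A 9 kb island inside the Ugt1a cluster, which encodes enzymes that conjugate glucuronic acid to bilirubin and drugs, had a density of 68.1. Bcl2l14 had 67.3 over 4 kb. Nkx2-4 lay wholly within an island of 51 kb with 2904 ChIP reads against 726 IgG reads and a density of 67.2 (64.8 to 69.7). The start of Camk4, a calcium and calmodulin dependent kinase, was in an island of 102 kb with 5786 reads, the most of any control-alone island, and a density of 67.0. The upper quartile of all control-alone islands was 34.7.

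The widest islands reached over whole genes or long parts of them. The widest, 150 kb, ran to the end of Plcl1, a phospholipase C related protein without catalytic activity, with 4737 reads and a density of 37.3. One of 126 kb contained Gm4861 (density 46.8), and one of 110 kb covered the end of Prlhr, the prolactin releasing hormone receptor (53.4). Gm4861 and Prlhr are 2.58 and 1.57 kb long, so most of each island lay outside that gene. KO islands that meet no gene are not listed there. Islands of 106 kb in Myo16, an unconventional myosin (36.6), of 102 kb in Pappa, a protease of IGF binding proteins (35.8), and of 80 kb over the start of Sesn3 (62.8) followed. Each of these widest islands had an FDR of 0 as listed and lay between 18 and 190 kb from the nearest listed KO island. The Sesn3 island also had many IgG reads, 27.1 per kb against a median of 12.8 in control-alone islands. Its fold over IgG was 2.32, near their median of 2.28.

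Among islands with at least 100 ChIP reads, the highest folds over IgG were in small islands with few IgG reads. A 4 kb island in Fam221b had 131 ChIP reads and 0 IgG reads, for which the listed fold of 619 uses 0.25 reads in place of 0. The next were 37.2 at the end of Lingo2 (126 against 4 reads), 20.5 in Dcdc2a, 19.3 in Clnk, an immune cell adaptor, 18.1 at the start of Sema6a, a semaphorin, 17.5 in the glutamate receptor relative Grid1, 14.1 in Cmah, which makes a sialic acid, and 13.8 in Nell1. Their densities lay between 24.6 in Dcdc2a and 53.1 in Clnk, and their IgG counts between 0 and 11.

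Of the 1771 control-alone islands, 578 stood alone, and the rest lay next to one another along a chromosome, within 1 gene or across several. Runs were not counted for overlapping islands, and the control-alone share differed between chromosomes, so these counts have no reference. There were 354 runs of at least 2 control-alone islands with no other listed island between them, which held 1193 islands. Runs of at least 5 numbered 65 and held 468 islands, and 18 of these runs were on chromosomes 4 and 5. The longest run was 21 islands in Ccser1, a coiled-coil protein gene, over 867 kb (chr6:61407001-62274000), of which 320 kb was covered. The next were 20 islands over 1917 kb through Adamtsl1, Bnc2 and Cntln, 15 over 953 kb at Lingo2, 14 over 2806 kb at Ptprd, all on chromosome 4, and 11 over 369 kb at Opcml. Il1rapl1 and the Pcdh7 region also had 11 each.

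Ccser1 had the most control-alone length. In sg-Ctrl, 23 islands covered 404 kb of the gene, 22 of them (352 kb, 8912 ChIP and 6404 IgG reads) were control alone, and the KO list had 1 island of 8 kb on the gene. Opcml, an adhesion protein of the IgLON family, had 22 of 24 islands control alone (337 of 358 kb), with 2 KO islands of 12 kb in total. Cadm2, a synaptic adhesion molecule, had 18 of 20 (290 of 315 kb) and 14 kb in KO. The KO islands on these 3 genes had densities of 18.1, 27.4 and 20.4 against 29.9, 31.4 and 26.6 in the control-alone islands.

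Kcnq5, a voltage-gated potassium channel, had 15 of 19 islands control alone (270 of 351 kb) and 43 kb in KO. Erc2, a scaffold of the presynaptic active zone, had 10 of 16 (240 of 369 kb) and 9 KO islands of 116 kb in total, of which some lie where sg-Ctrl had none. Plcl1 had 5 of 6 (239 of 422 kb) and no KO island on the gene. The island of Plcl1 that was not control alone reaches beyond the gene's start, and the KO island it overlaps is listed for the neighbouring gene Boll. Slc24a3, a sodium, potassium and calcium exchanger (9 of 9 islands, 204 kb), Il1rapl1, a synaptic relative of the interleukin-1 receptor (11 of 11, 159 kb), and Pcdh7, a protocadherin (9 of 9, 139 kb), also had none in KO. Magi2, a junctional scaffold, shows the other pattern, with 20 of 43 islands control alone (194 of 703 kb) and 397 kb in 31 KO islands.

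Enrichment in sg-Ctrl differed between these long genes, against a median fold of 2.28 over all control-alone islands. The pooled fold over IgG of the control-alone islands was 1.64 in Ccser1, 2.26 in Opcml, 1.11 in Cadm2, 1.97 in Kcnq5, 2.76 in Erc2, 2.53 in Plcl1, 2.28 in Slc24a3, 2.49 in Adamtsl1 and 1.38 in Pcdh7. In Cadm2 the islands held 6530 ChIP reads and 6923 IgG reads. Over all genes of at least 500 kb, the 369 control-alone islands had a median fold of 1.82 and 15.4 IgG reads per kb, against 2.43 and 12.3 for the 1402 on shorter genes.

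**Figure D2:**
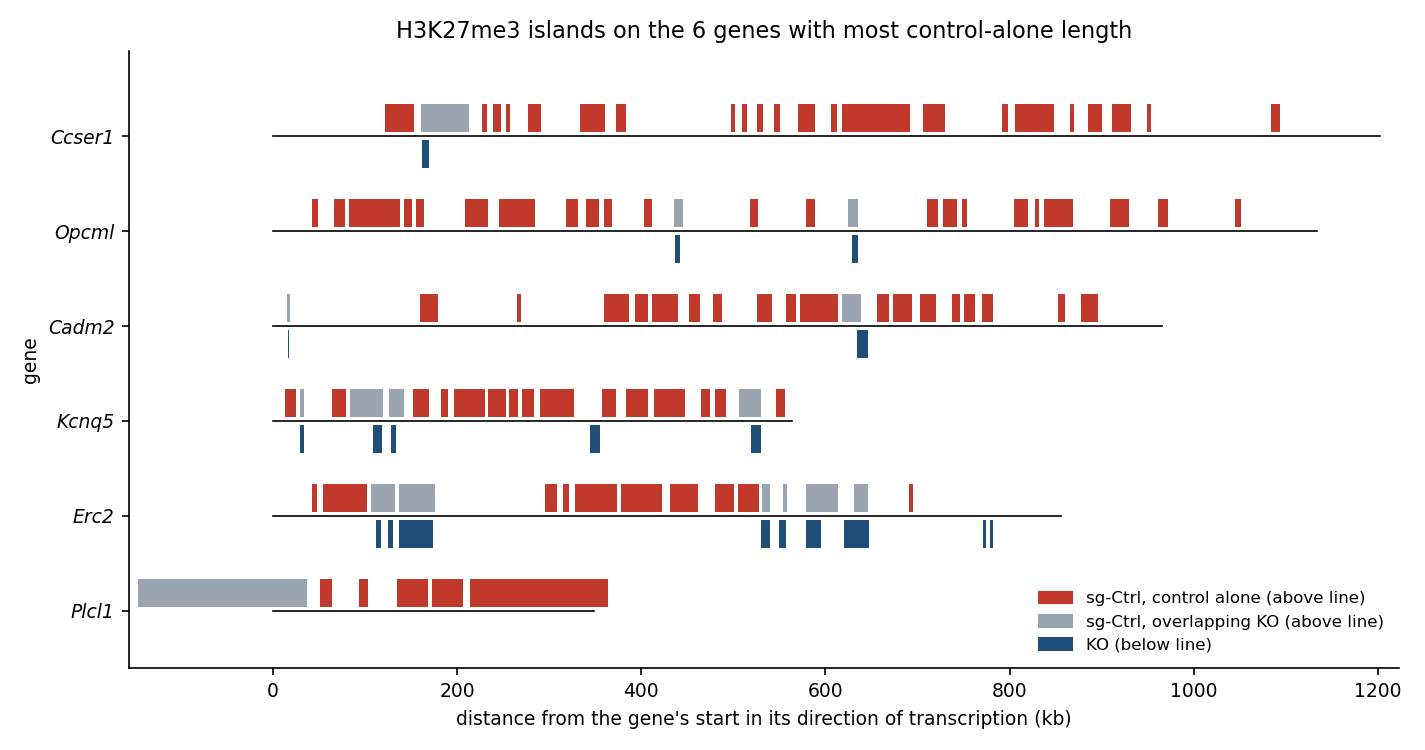
Islands on the 6 genes with the most control-alone length, by distance in kb from the gene's start, with sg-Ctrl islands above each line (red, control alone, or grey, overlapping KO) and KO islands in blue below it. KO islands covered 8, 12 and 14 kb of Ccser1, Opcml and Cadm2 and 116 kb of Erc2, in part outside the sg-Ctrl islands, and none lay on Plcl1.

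The share of islands that were control alone differed widely between chromosomes. It was 47.2% on chromosome 4 (175 of 371, interval 42.1 to 52.3), 34.0% on chromosome 18 (101 of 297) and 30.4% on chromosome 5 (182 of 598), against 5.01% on chromosome 8 (28 of 559, 3.49 to 7.14) and 7.69% on chromosome 19. Chromosomes 4, 5 and 18 held 458 (25.9%) of the control-alone islands and had a share of 36.2%, while the rest of the genome had 15.8%. In the other direction, 11.6%, 10.96% and 7.08% of the KO islands on chromosomes 4, 5 and 18 had no sg-Ctrl counterpart, against 24.5% of all KO islands, 33.2% on chromosome 8 and 10.7% on chromosome 19. The length covered went from 6909 kb in sg-Ctrl to 4185 kb in KO on chromosome 4 and from 12716 to 21241 kb on chromosome 8.

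Other readouts moved with the chromosome. In islands that overlapped between the libraries, the median log2 ratio of H3K27me3 density (KO over sg-Ctrl) was -0.38 on chromosome 4, -0.40 on chromosome 18 and -0.26 on chromosome 5, against -0.11 over all and 0.10 on chromosome 8. The median log2 ratio of H3K4me3 over all genes was -0.72 on each of chromosomes 4, 5 and 18, the lowest of the 20 chromosomes, against -0.50 over all genes and -0.36 on chromosome 8. Chromosome 13, next by control-alone share with 27.1%, had -0.49. 4T1 cells are aneuploid, all H3K27me3 and H3K4me3 lists share 1 IgG library, and the number of copies of each chromosome in sg-Ctrl and in the KO clone was not measured here, so a difference in copy number and a difference in the mark cannot be told apart. One control-alone island, over Pisd-ps3, is on an unplaced contig on which the KO list has no island.

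**Figure D3:**
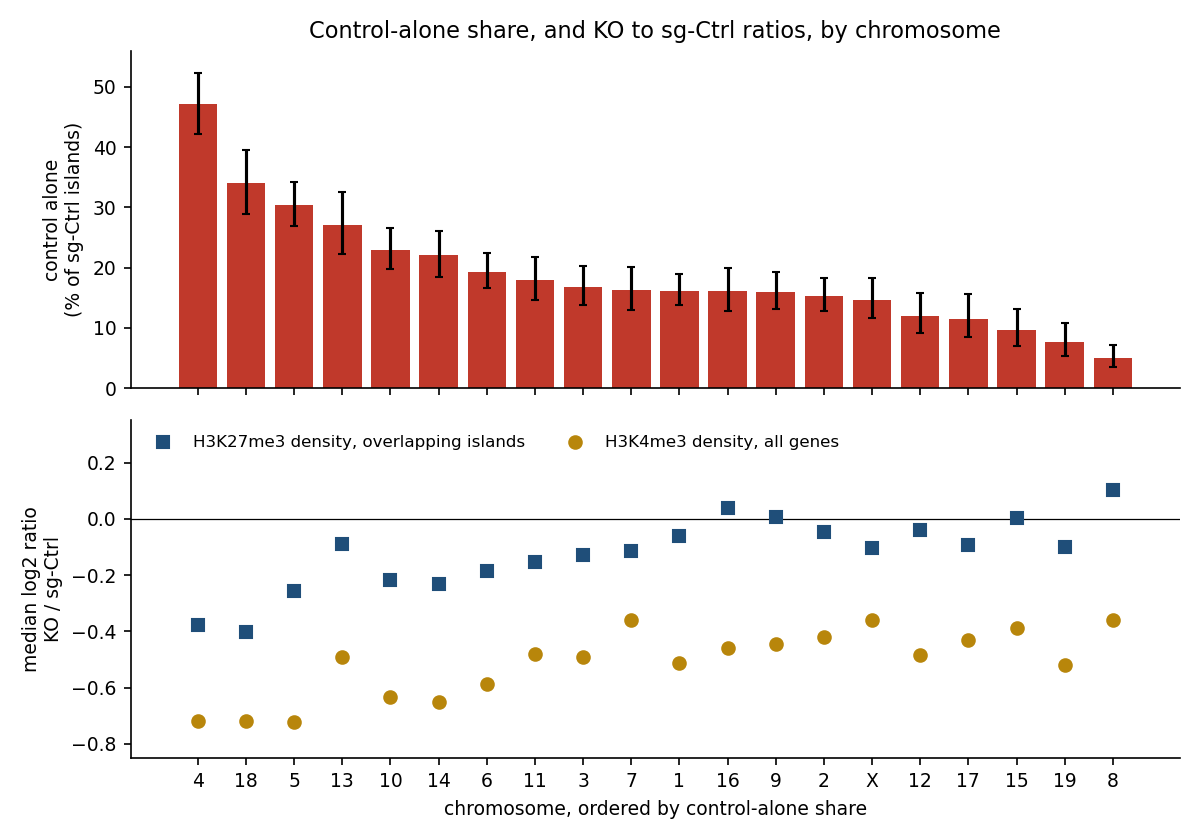
Top, share of sg-Ctrl islands that were control alone on each chromosome with 95% Wilson intervals, from 47.2% on chromosome 4 to 5.01% on chromosome 8. Bottom, median log2 ratio (KO over sg-Ctrl) of H3K27me3 density in overlapping islands (squares) and of H3K4me3 density over all genes (circles), which was -0.72 on chromosomes 4, 5 and 18.

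NUP210 and NPC peaks, which were called in sg-Ctrl cells and not used to choose the islands, met control-alone islands less often than other islands. A NUP210 peak was met by 569 control-alone islands (32.1%, interval 29.99 to 34.3), against 44.0% of overlapping islands (42.9 to 45.1) and 41.8% of all sg-Ctrl islands. An NPC peak was met by 463 (26.1%, 24.2 to 28.2), against 39.0% and 36.6%. A wider island has more bases that can meet a peak, and in both groups the share was higher in wider islands. NUP210 shares were 17.8% and 26.9% for control-alone and overlapping islands up to 3 kb, 26.9% and 30.5% for 4 to 6 kb, 33.2% and 32.2% for 7 to 10 kb, 36.1% and 39.4% for 11 to 20 kb, 38.8% and 52.1% for 21 to 50 kb and 63.0% and 73.8% above 50 kb. The NUP210 intervals of both groups overlapped in every class except that of 21 to 50 kb. The NPC intervals were apart in the class of 21 to 50 kb (31.3% against 47.2%) and above 50 kb (40.7% against 69.6%).

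The NUP210 contact was highest where H3K27me3 stood least above IgG. Among control-alone islands with a fold under 1.5, 238 of 337 (70.6%) met a NUP210 peak, and the share was 41.5% for folds of 1.5 to 2, 23.5% for 2 to 3 and 9.65% for 3 or more. The same order was seen in overlapping islands, with 79.5%, 58.9%, 40.5% and 29.6%. The median IgG reads per kb of the control-alone islands went down in the same order, from 21.6 to 15.9, 12.1 and 7.5, and their part in the NUP210 share was not tested. On the long genes named above, NUP210 peaks met 19 of 22 control-alone islands in Ccser1, 18 of 18 in Cadm2 and 9 of 9 in Pcdh7, but 2 of 10 in Erc2 and 1 of 16 in Adamtsl1. NUP210 peaks themselves were weak, with a median fold over their IgG of 1.19. With NUP210 peaks of at least 2-fold, 15 control-alone islands (0.847%) and 110 overlapping islands (1.41%) met one, and 0 and 21 met such an NPC peak.

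**Figure D4:**
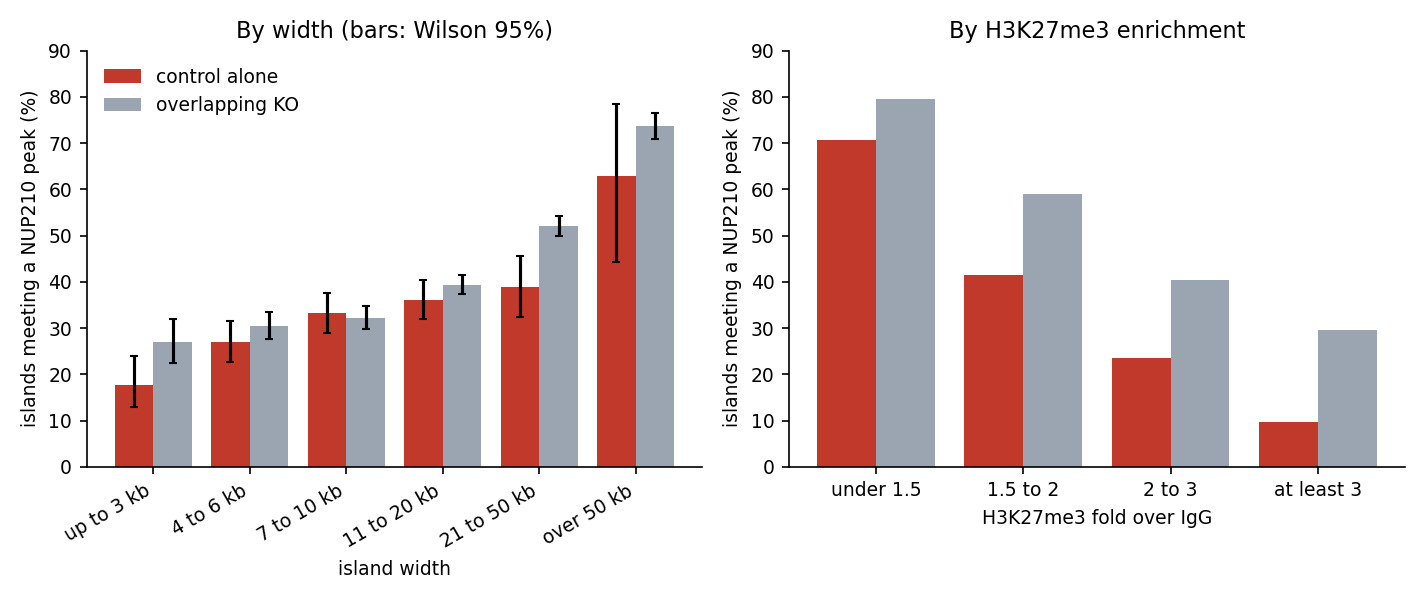
Share of islands that met a NUP210 peak of sg-Ctrl, for control-alone islands (red) and islands overlapping KO (grey), by island width with 95% Wilson intervals (left) and by H3K27me3 fold over IgG (right). In control-alone islands the share fell from 70.6% at folds under 1.5 to 9.65% at folds of 3 or more.

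H3K4me3 at gene starts was not used to choose the islands, but it comes from the same KO clone and shares the IgG library. By chromosome, the control-alone share and the median H3K4me3 log2 ratio had a Spearman rho of -0.73. H3K4me3 was lower in KO over all genes and less so at genes with control-alone islands. Scaled density depends on the width of the called peak, which can differ between the libraries. The value per gene is the log2 ratio of scaled H3K4me3 density (KO over sg-Ctrl) of the densest peak within 4 kb of a start. Its median was -0.20 (interval -0.28 to -0.13) over 294 genes with a control-alone island, -0.29 (-0.35 to -0.23) over 372 genes whose islands all overlapped KO and -0.50 over all 12197 genes. The sign of the first median depends on the scaling, and it was 0.22 with shared peaks set equal and 0.14 unscaled, which shift every gene alike and put the median of all genes at -0.08 and -0.15. With the scaled reads of all peaks near a start summed in place of the density of 1 peak, the medians were 0.01 and -0.33. Of the 294 genes, 15 (5.10%) were at least 2-fold lower in KO, against 9.66% of all genes, and 14 (4.76%) were at least 2-fold higher, against 0.525%. These counts rest on the scaling, and relative to the median of all genes 1 of the 294 was at least 2-fold lower and 43 were higher, against 113 and 268 of all 12197. Genes whose islands all overlapped KO had 11.02% lower and 3.49% higher at library-size scaling, and 8 lower and 51 higher of 372 relative to the median. A peak was listed in sg-Ctrl alone for 17 of 311 genes (5.47%), against 9.71% of genes whose islands all overlapped KO and 2.06% of all genes. The peaks of these genes were low, with a median density of 261 in sg-Ctrl against 543 over all genes. On chromosomes 4, 5 and 18 the median was -0.41 for genes with control-alone islands, against -0.72 for all genes there, and on the other chromosomes -0.15 against -0.47.

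The size of the difference from all genes varied with the strength of the H3K4me3 peak. Where the mean density of both libraries was at least 300, the median log2 ratio was -0.55 both for the 130 genes with a control-alone island and for all 9597 genes, and 0 of these 130 were at least 2-fold higher. At this density the 36 genes with a covered start had a median of -0.30, with 5 (13.9%) at least 2-fold lower. Among all 9597 genes there, 990 (10.3%) were at least 2-fold lower and 4 (0.0417%) at least 2-fold higher. Where it was 100 to 300, the medians were -0.06 (n = 115) and -0.25 (n = 2237), and below 100 they were 0.24 (n = 49) and -0.06 (n = 363). Of the 14 genes that were at least 2-fold higher, 7 had a density of 100 to 300, where 1.83% of all genes were higher, and 7 one below 100, where 5.23% were.

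For genes whose start itself was covered by a control-alone island, the median log2 ratio was -0.08 (-0.20 to 0.09, n = 93), against -0.15 (-0.26 to -0.07, n = 203) where the covering island overlapped KO, and the intervals overlap. At least 2-fold higher H3K4me3 in KO was seen at 11 of the 93 (11.8%, 6.73 to 19.9) and at 10 of the 203 (4.93%, 2.70 to 8.83), with overlapping intervals, and at least 2-fold lower at 5 and 17. These counts and intervals take each gene as separate, though some genes share an island and a peak. Cited1 and Gm14858 do so among the 11, and Mir99a and Mirlet7c-1 among the 5. Relative to the median of all genes, 19 of the 93 and 35 of the 203 were at least 2-fold higher and 0 and 4 lower. The size of the gap between the groups in higher starts thus depends on the scaling. Of the 11, 6 had a mean density below 100 and 5 one of 100 to 300, and 0 were among the 36 covered starts with a density of at least 300. None of the 11 lay on chromosomes 4, 5 or 18.

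The 11 starts with more H3K4me3 in KO belong to genes of varied function. Iqgap2, a scaffold of the actin cytoskeleton, had an H3K27me3 island of 31 kb with 525 ChIP and 187 IgG reads over its start, no KO island, and H3K4me3 peaks of 125 reads in sg-Ctrl and 672 in KO (log2 ratio 1.82). Ccnjl, a cyclin, had 81 and 751 H3K4me3 reads (1.77) under a 15 kb island. Tppp, which promotes tubulin polymerization, had 78 and 315 (1.35), and the tetraspanin Tspan18 had 59 and 210 (1.26).

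Hoxa13, a homeobox gene of the limb and genital tract, had an island of 27 kb with a density of 35.5, no KO island, and H3K4me3 of 87 and 282 reads (1.06). Sema6d, a semaphorin, had 541 and 2078 reads (1.16), Xdh, which makes uric acid, 244 and 662 (1.25), and the lipid acyltransferase Mboat2 84 and 184 (1.25). Cited1, a transcriptional coregulator, shared both its island and its H3K4me3 peak with Gm14858 (112 and 310 reads, 1.12). With shared peaks set equal, these ratios were 0.42 higher. All of these peaks were below the median H3K4me3 density of all genes in sg-Ctrl and in KO except that of Sema6d in KO, at 406 against a median of 382.

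H3K4me3 at a start was listed in KO alone for 11 genes with a control-alone island there and in sg-Ctrl alone for 3, Phactr2, Spata13 and Zfp820. The 11 were 10.6% of the 104 such genes with a KO peak, against 1.93% of all genes and 15.1% of those under an overlapping island. They included Lifr, the receptor of leukemia inhibitory factor, with a 43 kb island of density 42.4 and 394 H3K4me3 reads in KO, Prtg, Map1a, Igdcc3, Ppm1e, Gm4861 (129 reads, fold 2.82), Ablim3, Grp and Camk4 (56 reads). The most reads were at 2310010M20Rik (3749) and Cnga1 (1641). Where no sg-Ctrl peak was listed, the lists give no reads for it.

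The genes whose promoters are shown or counted above differed in H3K4me3. Sesn3 had 4187 reads in sg-Ctrl and 6948 in KO, at densities of 940 and 548 (log2 ratio -0.78), above the medians of all genes. Churc1 had 1204 and 1401 reads at densities of 378 and 325 (-0.22), and Atxn7l3b 1414 and 944 reads at 230 and 269 (0.23), below those medians. The peaks were 4.2 kb wide in sg-Ctrl and 9.4 kb in KO at Sesn3, and 5.8 and 2.6 kb at Atxn7l3b. At both genes the reads and the density went in opposite directions, so the sign of the ratio depends on peak width. The promoters of Sesn3, Churc1 and Atxn7l3b held 17 to 22 CG. The covered starts with the lowest ratios were Mir99a and Mirlet7c-1, microRNA genes under 1 peak (6966 and 4122 reads, -1.40), Scamp2, a secretory carrier membrane protein (-1.17), 3110001D03Rik (-1.08) and Msra, a methionine sulfoxide reductase (-1.08). With shared peaks set equal none of these 5 was 2-fold lower. The Scamp2 peak was 2.8 kb wide with 3089 reads in sg-Ctrl and 5.2 kb wide with 3242 reads in KO. The H3K27me3 island at Mir99a had 148 ChIP and 275 IgG reads, a fold of 0.636.

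**Figure D5:**
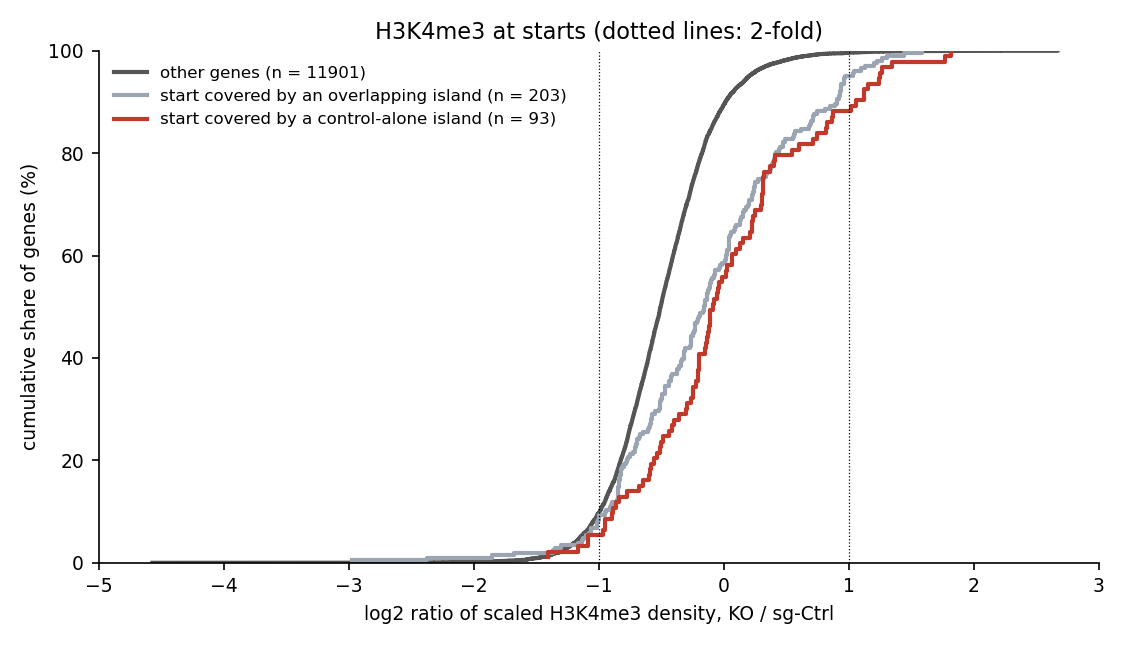
Cumulative share of genes by the log2 ratio of scaled H3K4me3 density (KO over sg-Ctrl) for genes whose start was covered by a control-alone island (red, n = 93, median -0.08), by an island overlapping KO (light grey, n = 203, median -0.15) and for other genes (dark). Dotted lines mark 2-fold, and 11 of the 93 genes lie beyond the upper line.

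By gene family, the share of islands that were control alone ranged from 4.19% to 66.7%, against 18.5% of all islands. Among keratins, the filament proteins of epithelia and hair, 8 of 12 islands were control alone, with Krt33b and Krt34 under 1 island of density 52.4, Krt31 under another (49.0) and Krt20 under 1 of 24 kb (31.9). No KO island was left on 10 of the 16 keratin genes, and 2 of 6 KO islands on keratins had no sg-Ctrl counterpart. Integrin and focal adhesion genes had 7 of 13, in Itga1, Itga11, Itgad and Itga8, of which Itga8 had an island of 42 kb with 1235 reads (34.7). In the other direction, 9 of the 15 KO islands on these genes had no sg-Ctrl counterpart, so islands were both lost and gained there. These small lists have wide intervals, 39.1 to 86.2% for keratins and 29.1 to 76.8% for integrins, and the keratin islands named lie close together on chromosome 11.

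Signalling ligands and receptors of the Wnt, FGF and TGF-beta families had 16 of 49 islands control alone (32.7%), among them Fzd1, a Wnt receptor, whose start lay in an island of 28 kb (44.7), Bmp6, a bone morphogenetic protein, Bmpr1b (44.1) and Wnt16 (42.9), while 14 of 50 KO islands on these genes had no sg-Ctrl counterpart. Chemokine, interleukin and receptor genes had 20 of 70 (28.6%), of which 11 were in Il1rapl1, and the starts of the chemokine receptors Ccr8 (29.2) and Ccr7 (25.6) were covered, with 13 of 61 in the other direction. Axon guidance genes had 31 of 125 (24.8%), with every island of Epha5 (4) and Epha7 (3), receptors of ephrins, control alone, and 17 of 98 in the other direction. Adhesion molecules had 114 of 503 (22.7%) and voltage-gated ion channels 41 of 181 (22.7%), with 7 of 58 and 1 of 37 genes left without a KO island. For adhesion molecules and channels the KO list also held many islands with no sg-Ctrl counterpart, 186 of 507 and 56 of 181. Intervals were 18.1 to 33.0% for axon guidance genes and 17.2 to 29.3% for channels, both of which hold the 18.5% of all islands. They were 19.2 to 26.5% for adhesion molecules, 19.3 to 40.1% for chemokine, interleukin and receptor genes and 21.2 to 46.6% for Wnt, FGF and TGF-beta genes.

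Collagens and matrix genes had 36 of 177 (20.3%), solute carriers 47 of 245 (19.2%), among them the iron exporter Slc40a1 (54.0), and zinc finger genes 13 of 79 (16.5%), near the share of all islands. Developmental transcription factors had 16 of 104 (15.4%), in Nkx2-4, Sox6 (43.7), Foxn3 (39.6) and Pou2f3 (36.3) among others, and 2 of 91 in the other direction. Glutamate and GABA receptors had 34 of 245 (13.9%) and cytochrome P450 genes 3 of 51 (5.88%). Olfactory, vomeronasal and taste receptors had 20 of 477 (4.19%), among which 1 island of 56 kb (51.0) covered Olfr96, Olfr97 and Olfr98. Of 7 islands on Polycomb and nuclear envelope genes, 1 was control alone, an island of 1 kb in the PRC1 subunit gene Bmi1 with 86 ChIP and 3 IgG reads.

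Nup210 itself had no H3K27me3 island in either list, and its H3K4me3 peak had 885 reads in sg-Ctrl and 913 in KO (log2 ratio -0.41, near the median of all genes), which does not bear on a coding mutation. Among the genes the study followed, Ptk2 had 2 islands in sg-Ctrl, none control alone, and Ccl2, Cxcl1, Cxcl3, Il1a, Itga7 and Itgb2 had no island in either list. Postn had none in sg-Ctrl and 2 in KO. The epithelial markers Epcam, Cdh1, Krt8, Krt18, Krt7 and Cldn4 each had an H3K4me3 peak in sg-Ctrl, of 1761 to 4533 reads. Ptprc and Cd3e of lymphocytes and Pecam1 and Cdh5 of endothelium had none, while Pdgfra and Col1a1, which are expressed by fibroblasts, had peaks of 1614 and 685 reads.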

How the data were processed

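Of 13 samples, 6 ChIP-seq lists were used. Per the study's methods, the authors called peaks with SICER, with windows of 1000 bp for H3K27me3 and NUP210 and 200 bp for H3K4me3; the submitters' processing notes also name Bowtie2, Picard, STAR and Trimmomatic. The authors deposited raw counts of ChIP and IgG reads per peak. They also deposited a p-value, its FDR and a fold, the ratio of ChIP to IgG reads after scaling for library size, with 0.25 reads used where IgG has 0. The lists held 5866175 to 26811061 reads in peaks, and total depth is otherwise unknown. RNA-seq (4 samples) was not analysed here, and IgG samples entered through the IgG counts only.

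Entries were collapsed to distinct islands, and overlap needed 1 bp. The ratio of ChIP to IgG library size was recovered as ChIP counts over IgG counts over fold, and counts were divided by it. All 832 H3K27me3 islands with equal positions in both lists had equal IgG counts. Because lists hold gene-body islands only, a KO island outside genes is not seen. Of 4589 genes matched by symbol, 87.1% started or ended no more than 50 bp from their GRCm38.p6 position, so positions are taken as that build; the notes name mm9, mm10 and NCBIM37 without a role.

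Intervals are Wilson for shares, exact Poisson for reads and order statistics for medians. With 1 library per condition there is no test. The members and lists were chosen with earlier results of these data known. Genes named are those of the 8 densest, 8 widest and 8 highest-fold islands, the 6 genes with most control-alone length, the 5 longest runs, up to 4 per gene list, the study's genes, and covered starts with the most H3K4me3 or extreme ratios. The remaining genes of top length, the runs after the 5th, the other starts past 2-fold or listed in 1 library, and the genes nearest the overlap threshold beyond 3 on either side were named after their values were seen. Some genes that the rule names are not reported here. Alternatives changed FDR, fold, width, position, overlap and scaling. Overlap, scaling and H3K4me3 calls were tested on simulated data. Scripts ran under Python 3.11.15 with scipy 1.17.1, pandas 2.3.3, numpy 2.4.6 and, for the plots, matplotlib 3.10.9.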

Additional observations from a re-analysis of the deposited data

How the results depend on the processing

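The number of control-alone islands stayed within 1.5 times 1771 under every alternative run. Their share of 18.5% was 19.6% when both lists were held to an FDR of 0.01, 27.1% with at least 2-fold over IgG in both lists, 20.6% with islands wholly inside gene bodies, 15.8% with islands at least 10 kb from the nearest KO island and 17.0% with islands of at least 5 kb. In choices made after the data were seen, it was 15.8% without chromosomes 4, 5 and 18, and 21.7% when KO islands needed an FDR of at most 0.05.

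The share meeting NUP210 peaks, 32.1%, and NPC peaks, 26.1%, moved to 28.4% and 22.8% for sg-Ctrl islands with an FDR of at most 0.05, 36.0% and 29.5% inside gene bodies, 23.3% and 14.1% with NUP210 and NPC peaks of an FDR of at most 0.05, 0.847% and 0% with such peaks at least 2-fold over IgG, 27.6% and 22.1% when 50% of the island had to be covered, and 40.2% and 33.9% with KO islands of an FDR of at most 0.05. The NUP210 share was 29.2% with 2-fold islands and 34.6% with islands of at least 5 kb. The median density of 28.7 was 29.5 at an FDR of at most 0.01, 32.4 at 2-fold, 27.3 for islands of at least 5 kb and 15.8 after subtracting IgG.

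The median log2 H3K4me3 ratio of genes with a control-alone island, -0.20, turned to 0.22 with shared peaks set equal and 0.14 unscaled, so its sign rests on the scaling, and to 0.013 with another measure, the summed scaled reads of all TSS peaks of a gene. With 1 library per condition, no replicate could be left out, and islands of few reads limit what 1 library shows. No paired analysis was possible because each condition has 1 library and no result comes from a test.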
